A study of Homo sapiens with 6 samples.

Results

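The genes described here mostly encode proteins of the spliceosomal small nuclear ribonucleoproteins (snRNPs), the RNA-protein particles that remove introns from pre-mRNA. Also included are 3 genes for proteins that help build them and PRPF19, whose protein joins the spliceosome at activation. For short, all these genes are called snRNP genes below. They were chosen as 41 named genes, looked up by gene name in the authors' deposited comparison table and joined by gene identifier to the deposited raw counts. Of the 41 names 40 were found, among 63677 genes in the table, and all 40 passed the filter on low counts that left 15492 genes for testing. The remaining name, LSM8, was not found, but its identifier ENSG00000128534 is listed under the name NAA38, and its values are given apart from the counts below. LSM2, SF3B4, PRPF3 and PRPF31 each had further identifiers, all with 0 counts.

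The samples are 6 RNA libraries of RPMI-8402, an established human line of T cell acute lymphoblastic leukaemia (T-ALL). All 6 stably expressed the nuclease Cas9 and carry the genotype label MYC_KO. The 3 controls received the solvent DMSO, and the other 3 received doxycycline (DOX) for 72 hours, which switches on guide RNAs directed at MYC, a transcription factor gene. The labels do not say whether the line is 1 clone or a pool, and name no sample that received DOX without guides, so effects of the drug and of the guides cannot be told apart. Nothing in the labels says that replicates came from separate cultures, and p-values here reflect no more than the spread among these libraries, part or all of which may be technical.

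Each major snRNP joins a small nuclear RNA (snRNA) to a ring of Sm proteins and to proteins of its own. U1 marks the start of an intron, U2 the branch point near its end, and U4, U6 and U5 arrive together as the tri-snRNP, after which U2, U6 and U5 form the catalytic centre. U6 carries a related ring of LSM proteins in place of the Sm ring. Sm rings are loaded onto snRNAs in the cytoplasm by the SMN complex, to which the GEMIN proteins belong, before the particle returns to the nucleus.

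Gene counts summed to between 23121255 and 26214598 per library. Levels below are a gene's counts as a share of its library's total, in CPM, scaled with TMM to allow for differences in library composition, so they do not show RNA per cell. The targeted gene MYC (ENSG00000136997) had 409, 422 and 407 CPM in the DMSO samples and 459, 431 and 431 CPM in the DOX samples, each in the order of replicates 1, 2 and 3 as throughout below. The DOX samples were all above the DMSO samples, and the difference of 0.09 (log2, SE 0.049) did not pass (edgeR adjusted p = 0.160). It passed as higher when libraries were scaled by their upper quartile (0.14, edgeR adjusted p = 0.0357) or by size alone (0.14, edgeR adjusted p = 0.0281). Under those scalings the median log2 change of all tested genes was 0.05 and 0.04, against -0.0007 with TMM. A gene-level count does not show small insertions or deletions, so groups are named by their labels. All 14 T cell leukaemia markers were expressed, with a summed level of 3627 to 3725 CPM in DMSO and 3852 to 4009 CPM in DOX, where 3 were higher and 1 lower. Of 5 B cell markers MS4A1 was at 0, and the list summed to 11.5 to 12.9 CPM in DMSO and 16.2 to 17.1 CPM in DOX, where CD79A was among the higher genes. Of 6 myeloid markers 1 was tested, MPO, which was higher in DOX, and the list summed to at most 2.36 CPM in any sample. The 4 erythroid markers summed to at most 0.198 CPM, with 2 at 0 in every sample. Of 5 fibroblast or epithelial markers COL1A2 and EPCAM were at 0, and the rest summed to 712 to 779 CPM in DMSO and 718 to 756 CPM in DOX. VIM carried most of that sum and did not pass, while COL1A1 was higher in DOX, from 40.1 ± 0.181 to 49.6 ± 2.96 CPM (SD, n = 3 each; edgeR adjusted p = 3.74e-04). The part of these marker levels in the results below was not tested.

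In the DOX samples 22 of the 40 snRNP genes fell and 0 rose (edgeR quasi-likelihood test, Benjamini-Hochberg adjusted p under 0.05). That is 55% of them, where 15.5% of all 15492 tested genes fell and 13.8% rose. The log2 fold change, DOX over DMSO, was negative for 35 of 40 and had a median of -0.16, against -0.00 over all tested genes. The falls were modest, from 8.8% to 29.2% of the DMSO level with a median of 16.3%, and 7 genes fell by at least 20%. The 18 genes that did not pass had changes between -12.6% and 4.0% (edgeR adjusted p from 0.0915 to 0.875). The DMSO and DOX samples did not overlap for 25 of 40, or 62.5%, with DOX below DMSO in all 25, against 41.7% of all tested genes, 21.0% with DOX below. These 25 are the 22 that passed and LSM4, SNRNP70 and SNRNP40, of which LSM4 had its highest DOX and lowest DMSO sample both at 101.1 CPM. The authors' deposited table gives an adjusted p-value under 0.05 to 22 of the 40 as lower and to 0 as higher, where 15.6% and 9.79% of its 13767 genes with a value did, and all 22 were also called by edgeR. With upper-quartile scaling 16 of 40 fell and 0 rose, where 10.2% of all tested genes fell and 18.5% rose. The median log2 fold change was then -0.11 over the 40 and 0.05 over all tested genes. The calls that this scaling ended were those of SNRPD2 (-0.13), SF3A3 (-0.10), SF3B1 (-0.08), SF3B3 (-0.10), PRPF19 (-0.11) and GEMIN5 (-0.12), with edgeR adjusted p from 0.0609 to 0.212.

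**Figure D1:**
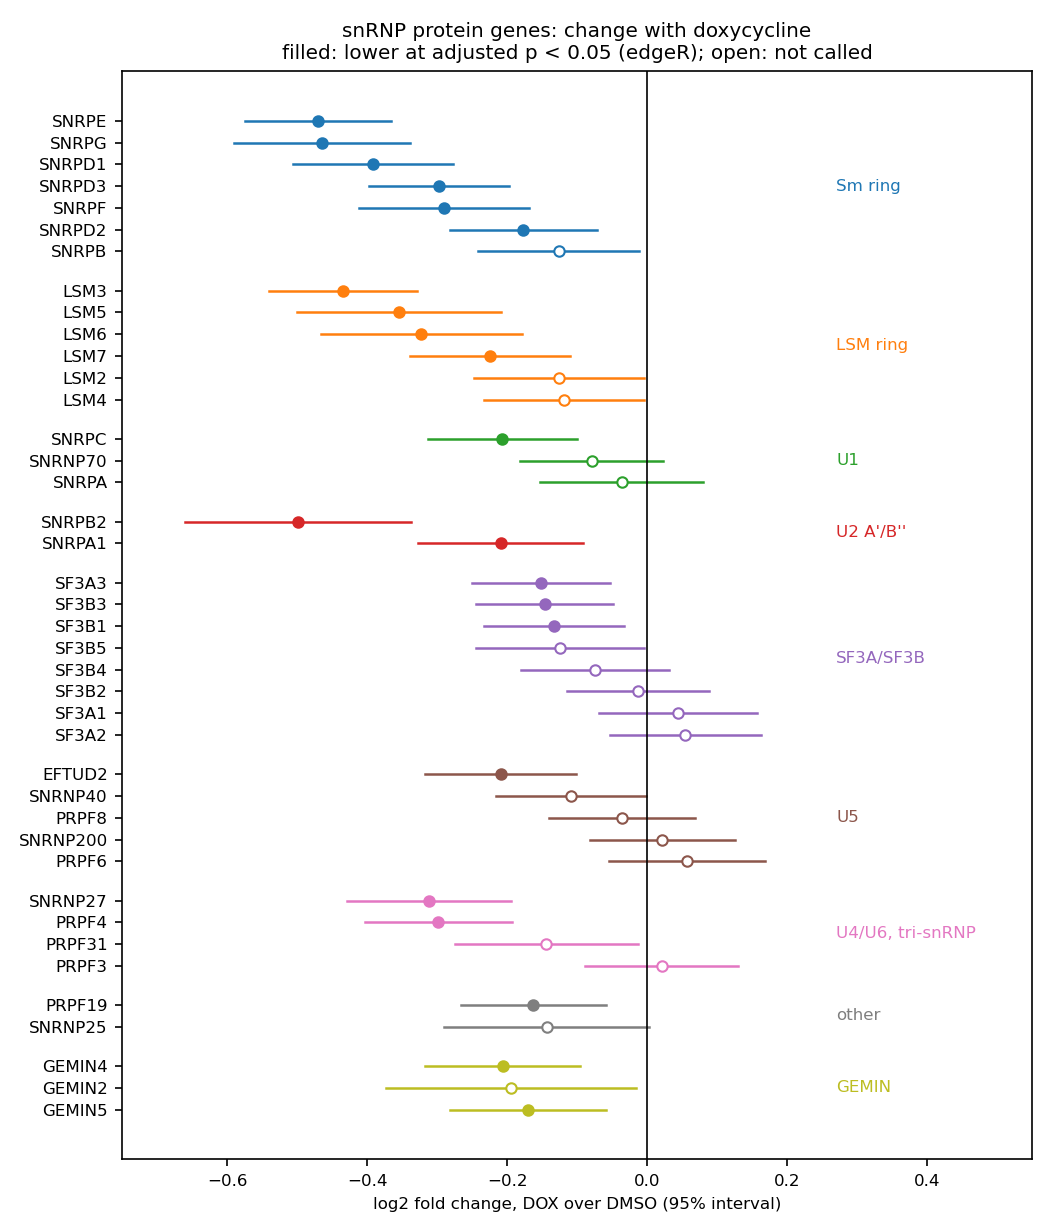
Log2 fold change (DOX over DMSO, horizontal axis) of each snRNP gene by class, with its 95% interval, from 3 DMSO and 3 DOX samples. Filled points fell at an edgeR adjusted p under 0.05 and open points did not pass. The 22 filled points all lie left of 0, and the farthest left are SNRPB2, SNRPE, SNRPG and LSM3.

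Promoter sequence was available in RefSeq (GRCh38.p14, 250 bases before to 50 after an annotated start) for 36 of the 40. The ETS core CCGGAAG, read on both strands, lay in a promoter of 17 of 36, or 47.2%, compared with 22.0% of 9658 tested genes and 12.2% of all 27305 genes with a window. It was held by 10 of the 19 that fell and by 7 of the 17 that did not pass. The E-box CACGTG, the core motif bound by MYC with MAX, lay in 2 of 36, EFTUD2 and SF3B1, or 5.6%, compared with 12.6% of tested genes. These matches are letters in a window and show no binding. The 100 bases upstream of a start are printed 5′ to 3′ for 5 of them, 3 that fell and 2 that did not pass (SNRPB and SNRNP200), with the ETS core, its reverse complement or the E-box in capitals.
SNRPG (chr2:70293448-70293547, minus strand): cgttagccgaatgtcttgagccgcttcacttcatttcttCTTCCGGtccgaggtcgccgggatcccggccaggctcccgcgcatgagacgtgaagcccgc
SNRPB (chr20:2470790-2470889, minus strand): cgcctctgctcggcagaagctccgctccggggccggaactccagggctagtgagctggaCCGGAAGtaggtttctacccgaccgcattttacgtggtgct
SNRPB2 (chr20:16729926-16730025, plus strand): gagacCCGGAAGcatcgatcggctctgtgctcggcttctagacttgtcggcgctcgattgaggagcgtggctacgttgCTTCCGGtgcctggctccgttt
SNRNP200 (chr2:96305547-96305646, minus strand): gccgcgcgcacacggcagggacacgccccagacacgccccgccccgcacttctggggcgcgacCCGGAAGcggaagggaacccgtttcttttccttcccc
SF3B1 (chr2:197435094-197435193, minus strand): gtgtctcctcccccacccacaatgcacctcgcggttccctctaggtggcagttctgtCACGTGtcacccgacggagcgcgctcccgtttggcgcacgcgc
Counted from the first base of the match, the ETS core begins 61 bases before the start in SNRPG, 41 in SNRPB, 37 in SNRNP200, and 95 and 22 in SNRPB2, and the E-box begins 43 bases before the start in SF3B1. SNRPG and SF3B1 have further annotated starts whose windows are not printed. Of the other motifs searched on both strands, the palindromic NRF1 site lay in 5.6% of the 36 and 2.8% of tested genes, YY1 (AANATGGCG) in 13.9% and 8.3%, and CCAAT in 38.9% and 43.6%.

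The Sm ring, made of SNRPB, SNRPD1, SNRPD2, SNRPD3, SNRPE, SNRPF and SNRPG, had 6 of its 7 genes lower and 0 higher, with a median log2 fold change of -0.30. SNRPE, which joins SNRPF and SNRPG in a subcomplex before the ring closes, stood at 91.7, 89.7 and 89.9 CPM in DMSO and at 66.6, 64.0 and 65.1 CPM in DOX. Both groups were tight and far apart. SNRPE went from 90.4 ± 1.08 to 65.3 ± 1.31 CPM (SD, n = 3 each), which is a log2 change of -0.47 (SE 0.051, edgeR adjusted p = 4.01e-07), the smallest adjusted p of the 40. SNRPG stood at 61.3, 70.1 and 66.2 CPM in DMSO and at 45.9, 46.1 and 51.1 CPM in DOX, again without overlap. Its log2 fold change was -0.46 (SE 0.061, edgeR adjusted p = 5.20e-06). SNRPD1, which pairs with SNRPD2, fell by 0.39 on the log2 scale from 65.3 ± 2.03 to 49.8 ± 1.90 CPM (SD, n = 3 each; edgeR adjusted p = 1.31e-05). SNRPD3, which pairs with SNRPB, fell by 0.30 from 126.8 ± 0.288 to 103.1 ± 2.16 CPM (SD, n = 3 each; edgeR adjusted p = 6.57e-05).

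SNRPF and SNRPD2 fell by 0.29 and 0.18 (edgeR adjusted p = 6.44e-04 and 0.0102). SNRPB was the 1 Sm gene that did not pass, at 152, 181 and 159 CPM in DMSO and 152, 149 and 149.5 CPM in DOX. DMSO replicate 1 lay at the level of the DOX samples and DMSO replicate 2 well above them. Its log2 fold change was -0.13 (edgeR adjusted p = 0.0925, 95% interval -0.24 to -0.01), and without DMSO replicate 1 SNRPB was called lower at -0.18 (edgeR adjusted p = 0.0360). In GENCODE 29, 20% of SNRPB's exonic bases are shared with AL049650.1 on the same strand, which could make its count uncertain. Whether the deposited count was affected was not tested. Of SNRPD3's bases, 12.0% are shared with GGT1 on the same strand and 12.6% with GUCD1 on the other. Small Sm genes have processed copies in the genome. For SNRPG, 20 pseudogenes are named in the table and 8 had counts, together 1857 against 8545 for SNRPG itself, so reads could have been split between them. The summed pseudogenes went from 14.0 ± 0.180 to 10.7 ± 1.61 CPM (SD, n = 3 each), lower in every DOX sample. For SNRPE the named pseudogenes held counts worth 1.40% of the gene's own, and for SNRPF 0.67%.

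Of the LSM ring of U6, the 6 genes found by name, which leave out LSM8, gave 4 lower and 0 higher, with a median of -0.27. LSM3 stood at 98.5, 103.7 and 98.2 CPM in DMSO and at 72.1, 76.0 and 74.2 CPM in DOX, a change of -0.43 (SE 0.051, edgeR adjusted p = 1.16e-06). LSM5 stood at 30.9, 28.1 and 30.8 CPM in DMSO and at 21.4, 25.6 and 23.3 CPM in DOX, a change of -0.35 (SE 0.071, edgeR adjusted p = 5.28e-04). In both genes every DOX sample lay below every DMSO sample. LSM6 fell by 0.32 (edgeR adjusted p = 0.00114) and LSM7 by 0.22 (edgeR adjusted p = 0.00350). LSM2 and LSM4 did not pass, at -0.13 and -0.12 (edgeR adjusted p = 0.110 and 0.112), and LSM2 was called lower without DMSO replicate 1, at -0.20 (edgeR adjusted p = 0.0171). The gene listed as NAA38 with the identifier of LSM8 stood at 28.6, 27.6 and 31.6 CPM in DMSO and at 25.6, 26.1 and 29.2 CPM in DOX. Those groups overlapped, and its change of -0.12 did not pass (edgeR adjusted p = 0.220).

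**Figure D2:**
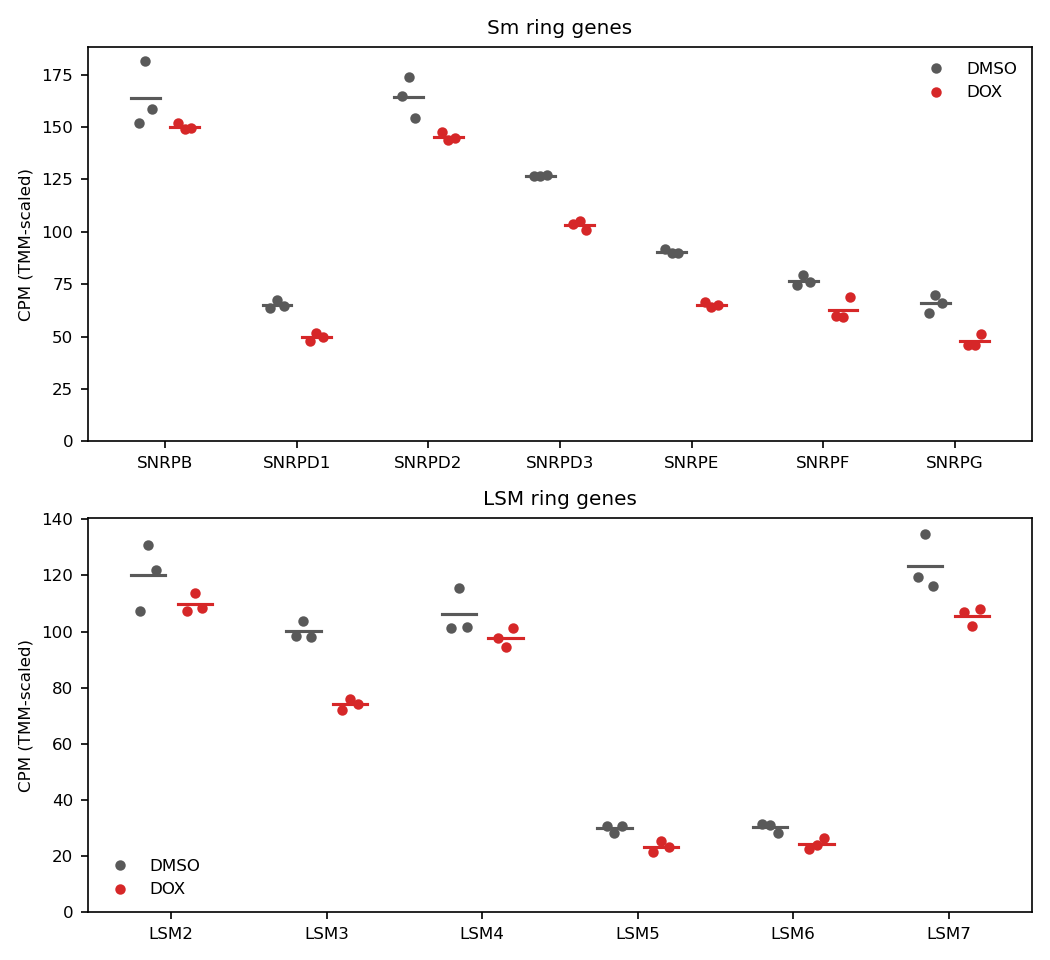
CPM (vertical axis, from 0) of each Sm ring gene and each LSM ring gene in every sample, with 3 points and a mean line for DMSO and for DOX. SNRPE, SNRPG and LSM3 show separate groups, whereas the SNRPB and LSM2 samples overlap.

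Both genes of the U2 pair SNRPB2 and SNRPA1 were lower. SNRPB2, which binds U2 snRNA together with SNRPA1, had the largest fall of the 40 genes. It stood at 166, 183 and 188 CPM in DMSO and at 125, 150.4 and 104 CPM in DOX. DOX replicate 2 was the highest and DOX replicate 3 the lowest of the treated samples, a wider spread than in the Sm genes, yet all lay below the DMSO samples. SNRPB2 went from 179 ± 11.3 to 126 ± 23.2 CPM (SD, n = 3 each), which is a log2 change of -0.50 (SE 0.079, edgeR adjusted p = 4.57e-05). The authors' DESeq2 comparison gives this gene a larger SE of 0.164 (DESeq2 adjusted p = 0.0112). With the offset described below its change was -0.298, and the largest fall was that of LSM3 at -0.38. SNRPA1, a leucine-rich repeat protein, fell by 0.21 from 55.2 ± 3.03 to 47.7 ± 0.275 CPM (SD, n = 3 each; edgeR adjusted p = 0.00726). Without DMSO replicate 1 SNRPA1 did not pass, at -0.17 (edgeR adjusted p = 0.0596), nor did it with the offset for GC content described below.

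The 8 genes of SF3A and SF3B, the U2 subcomplexes that hold the branch point, gave 3 lower and 0 higher, with a median of -0.10. SF3A3 stood at 209.6, 215 and 204 CPM in DMSO and at 183, 193 and 189.8 CPM in DOX, a change of -0.15 (SE 0.048, edgeR adjusted p = 0.0188). SF3B3, a scaffold of SF3B, stood at 466, 466 and 460.0 CPM in DMSO and at 415, 430.4 and 413 CPM in DOX, a change of -0.15 (SE 0.048, edgeR adjusted p = 0.0222). The groups did not overlap for either gene. SF3B1, which contacts the branch point, fell by 0.13 from 326 ± 4.03 to 297 ± 12.0 CPM (SD, n = 3 each; edgeR adjusted p = 0.0407). These 3 calls were narrow. SF3A3 did not pass without DMSO replicate 1 (-0.15), DOX replicate 1 (-0.13) or DOX replicate 3 (-0.16), with edgeR adjusted p of 0.0545, 0.0910 and 0.0618. SF3B3 did not pass without DMSO replicate 1 (-0.14), DOX replicate 1 (-0.14) or DOX replicate 3 (-0.13), with edgeR adjusted p of 0.0622, 0.0722 and 0.110. SF3B1 did not pass without DMSO replicate 1 (-0.12) or DOX replicate 1 (-0.14), 2 (-0.10) or 3 (-0.16), with edgeR adjusted p of 0.117, 0.0695, 0.215 and 0.0620. SF3B5 and SF3B4 had changes of -0.12 and -0.07 and did not pass (edgeR adjusted p = 0.112 and 0.292). SF3B2, SF3A1 and SF3A2 stayed within 0.06 of 0 on the log2 scale, at -0.01, 0.04 and 0.05 (edgeR adjusted p = 0.875, 0.586 and 0.464), and SF3B2 was at 0.04 with upper-quartile scaling. PLEKHJ1 on the opposite strand overlaps 12.7% of SF3A2's exonic bases.

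Of the 3 proteins particular to U1, SNRPC was lower and the others did not pass. SNRPC, which steadies the pairing of U1 with the start of the intron, stood at 222, 251 and 230.2 CPM in DMSO and at 200.5, 209 and 200.3 CPM in DOX. The groups did not overlap, and its change was -0.21 (SE 0.052, edgeR adjusted p = 0.00373). SNRNP70 and SNRPA, which bind the stem-loops of U1 snRNA, had changes of -0.08 (edgeR adjusted p = 0.242, 95% interval -0.18 to 0.02) and -0.04 (edgeR adjusted p = 0.676, 95% interval -0.15 to 0.08). With upper-quartile scaling SNRPA was at 0.01, where the median over all tested genes was 0.05.

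Among 5 genes of U5 proteins 1 was lower and 0 higher, where 15.5% of all tested genes were lower. Their median was -0.04, and 0.01 with upper-quartile scaling, where that of all tested genes was 0.05. EFTUD2, the GTPase of U5, stood at 273, 299 and 266 CPM in DMSO and at 253, 232 and 240.2 CPM in DOX. All DOX samples lay below all DMSO samples, with a change of -0.21 (SE 0.053, edgeR adjusted p = 0.00385). PRPF8, the large protein that forms the active-site cavity, stood at 1321, 1297 and 1271 CPM in DMSO and at 1310, 1225 and 1259 CPM in DOX, with overlap. Its change was -0.04 (edgeR adjusted p = 0.638, 95% interval -0.14 to 0.07), and 0.01 with upper-quartile scaling. SNRNP200, the helicase that unwinds U4 from U6, had a change of 0.02 (edgeR adjusted p = 0.783, 95% interval -0.08 to 0.13). SNRNP40, a WD-repeat protein, had a change of -0.11 without overlap of the groups and did not pass (edgeR adjusted p = 0.118). PRPF6, which bridges U5 and U4/U6, had the most positive change of the 40 genes, 0.06, and did not pass (edgeR adjusted p = 0.462). It stood at 173, 183 and 155 CPM in DMSO and at 178, 179 and 176 CPM in DOX, so the DMSO samples enclosed the DOX samples, and without DMSO replicate 3 its change was -0.01.

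For the U4/U6 and tri-snRNP proteins 2 of 4 genes were lower, 0 were higher and the median was -0.22. PRPF4, which sits on U4/U6 with PRPF3, stood at 102, 109 and 109 CPM in DMSO and at 86.1, 87.5 and 86.7 CPM in DOX, a change of -0.30 (SE 0.051, edgeR adjusted p = 1.09e-04). SNRNP27 stood at 71.7, 68.9 and 66.9 CPM in DMSO and at 58.9, 56.2 and 52.1 CPM in DOX, a change of -0.31 (SE 0.057, edgeR adjusted p = 2.27e-04). Neither gene's groups overlapped. MXD1 shares 10.4% of SNRNP27's exonic bases on the same strand, and its own change was -0.01 (edgeR adjusted p = 0.974). PRPF3 had a change of 0.02 (edgeR adjusted p = 0.805) and -0.03 without DMSO replicate 3. PRPF31, which recognises the U4 RNA fold, had a change of -0.14 and did not pass (edgeR adjusted p = 0.0915), although it was called lower without DMSO replicate 3, at -0.19 (edgeR adjusted p = 0.0329). Antisense AC245052.4 and TFPT overlap 22.0% and 9.95% of PRPF31's exonic bases on the opposite strand.

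PRPF19, a ubiquitin ligase that joins the spliceosome at activation, stood at 367, 365 and 335 CPM in DMSO and at 329, 310.1 and 315 CPM in DOX. The groups lay close together without overlap, and PRPF19 fell by 0.16 (edgeR adjusted p = 0.0163). It did not pass without DMSO replicate 1 (-0.14), DOX replicate 2 (-0.15) or DOX replicate 3 (-0.16), with edgeR adjusted p of 0.0816, 0.0800 and 0.0738. SNRNP25, of the minor U11/U12 particle, had a change of -0.14 and did not pass (edgeR adjusted p = 0.134). Without DOX replicate 2 SNRNP25 was called lower at -0.21 (edgeR adjusted p = 0.0486).

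Of the 3 GEMIN genes, GEMIN4 and GEMIN5 were lower. GEMIN4 stood at 97.9, 102.9 and 90.9 CPM in DMSO and at 86.7, 82.9 and 83.4 CPM in DOX, a change of -0.21 (SE 0.054, edgeR adjusted p = 0.00521). GEMIN5, which recognises snRNAs for Sm loading, stood at 80.3, 78.0 and 74.7 CPM in DMSO and at 69.9, 65.6 and 71.6 CPM in DOX, a change of -0.17 (SE 0.054, edgeR adjusted p = 0.0190). Neither gene's groups overlapped, and GEMIN5 did not pass without DMSO replicate 1 (-0.15, edgeR adjusted p = 0.0985) or DOX replicate 2 (-0.14, edgeR adjusted p = 0.117). GEMIN2, which cradles the open Sm ring, was the least abundant of the 40 at 17.4 ± 2.10 CPM in DMSO (SD, n = 3) and had a change of -0.19 that did not pass (edgeR adjusted p = 0.0950). Without DMSO replicate 3 GEMIN2 was called lower at -0.27 (edgeR adjusted p = 0.0217).

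Summed over each class, the 7 Sm genes made up 735, 789 and 737 CPM in DMSO and 624, 619 and 629.9 CPM in DOX, a ratio of means of 0.829. The 6 LSM genes summed to 489, 544 and 498 CPM in DMSO and 428, 436 and 442 CPM in DOX, a ratio of 0.853. DMSO replicate 2 was the highest sample in both sums, and the groups did not overlap. The ratio was 0.745 for the U2 pair, 0.876 for the GEMIN genes, 0.884 for the U4/U6 and tri-snRNP genes, 0.894 for PRPF19 with SNRNP25 and 0.936 for U1, all without overlap. For SF3A with SF3B and for U5 the ratios were 0.965 and 0.977 and the groups overlapped. Sm ring CPM divided by U5 CPM within a library was 0.285, 0.305 and 0.298 in DMSO and 0.242, 0.256 and 0.255 in DOX, lower in every DOX sample. LSM ring CPM divided by Sm ring CPM was 0.677 ± 0.0124 in DMSO and 0.697 ± 0.00925 in DOX (SD, n = 3 each) and overlapped. These sums and ratios were not tested and were taken without the offset for GC content and length described below. With that offset the median log2 fold change was -0.20 for the Sm ring and -0.09 for U5, against -0.30 and -0.04 without it. PRPF8, the U5 gene with the highest CPM, was lower with the offset at -0.16 (edgeR adjusted p = 0.00883).

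**Figure D3:**
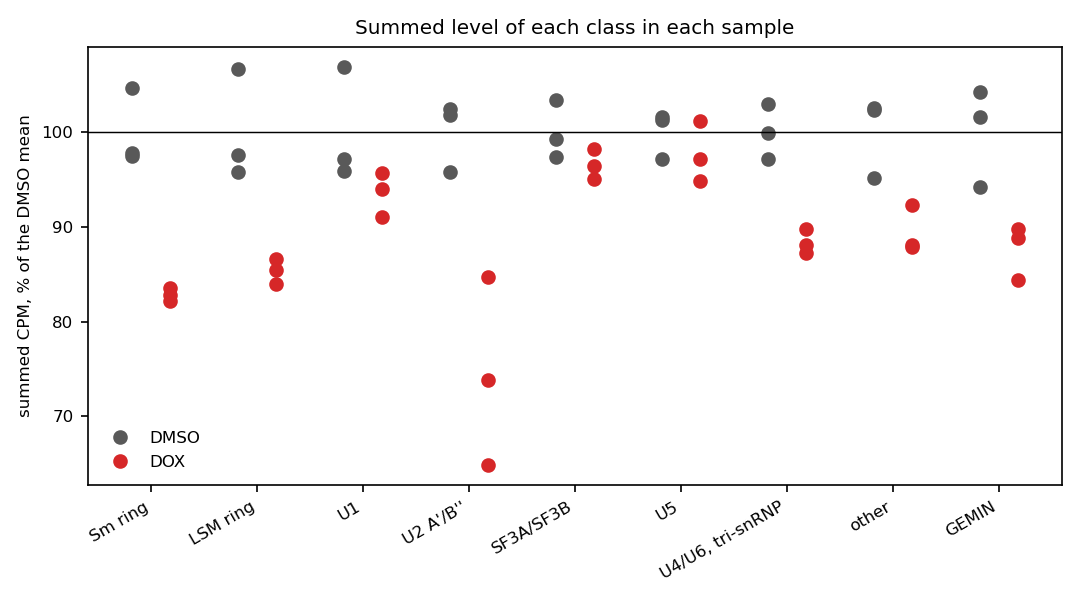
Summed CPM of each class in every sample, as a percent of that class's DMSO mean (vertical axis), with 3 points for DMSO and 3 for DOX. No offset for GC content was used. The U2 pair is lowest in DOX (ratio 0.745), the Sm ring next (0.829), and the SF3A with SF3B and U5 samples overlap.

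Fold changes followed the GC content of transcripts in these libraries, over the 40 genes (Spearman's rho 0.55, n = 40) and over all tested genes (0.41, n = 15036), as a description across genes that share libraries. Of the 19 snRNP genes under 50% GC, 15 fell, where 23.8% of all tested genes in that range fell, and of the 21 at or above 50% GC, 7 fell, where 6.3% did. Transcript length made less difference, with 8 of 17 lower under 2000 bases, where 15.6% of all tested genes were, and 14 of 23 at or above, where 16.0% were. When the trend with GC content and length in each library was entered as an offset, 20 of the 40 were lower and 0 higher, against 11.3% lower and 10.7% higher of 15036 genes, and the median was -0.12. Both fits called 15. SNRPF (0.00), LSM5 (-0.13), LSM6 (-0.14), SNRPC (-0.08), SNRPA1 (-0.03), SF3B1 (-0.07) and SNRNP27 (-0.08) no longer passed. LSM4 (-0.17), SNRNP70 (-0.24), PRPF8 (-0.16), PRPF31 (-0.22) and SNRNP25 (-0.21) were lower with the offset and did not pass without it. SNRPF, the poorest of the 40 in GC at 35.4%, moved from -0.29 to 0.00 (edgeR adjusted p = 0.976). SNRPE, SNRPG, LSM3 and SNRPB2 were lower with the offset at -0.29, -0.20, -0.38 and -0.30. The 13 ring genes had a median of -0.30 and 10 lower without the offset, and -0.17 and 8 lower with it. For the other 27 the median was -0.14 without and -0.08 with it. In each of the fits 12 were lower, and 8 were lower in both. The offset removes any change that follows GC content or length, whatever its origin, and which origin applies was not tested.

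**Figure D4:**
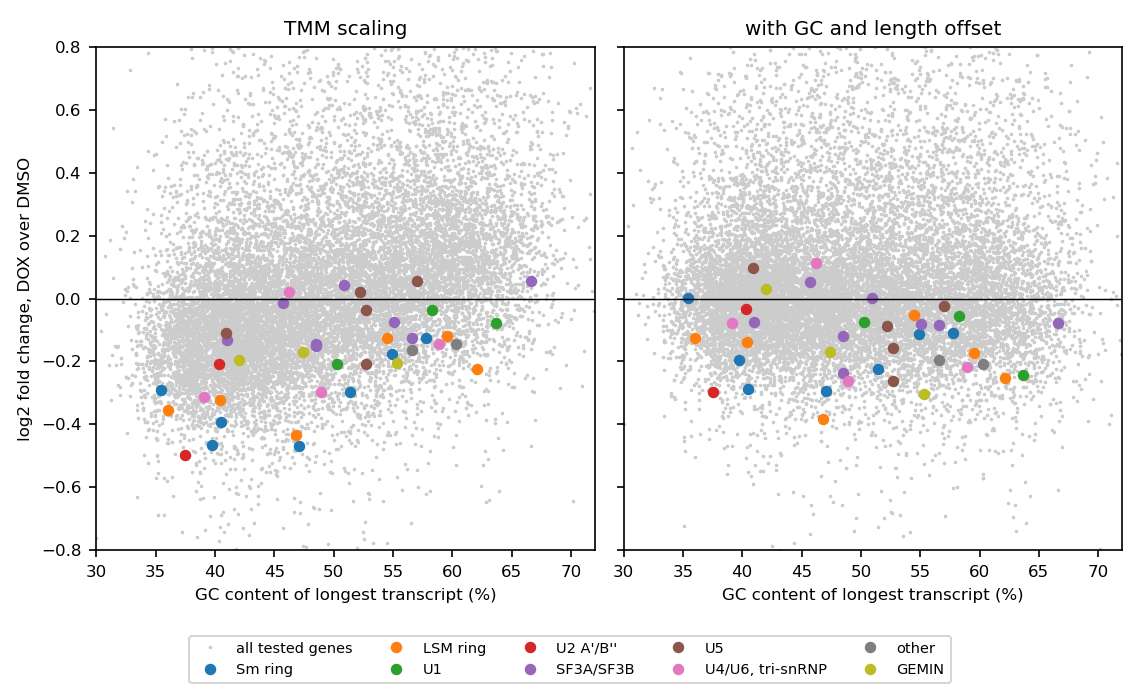
Log2 fold change (DOX over DMSO) against the GC content of the longest transcript (percent), without the offset and with it, with snRNP genes coloured by class over all tested genes in grey. Spearman's rho over the 40 is 0.55 without the offset and -0.17 with it, and SNRPF moves from -0.29 to 0.00.

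Other genes of snRNP biogenesis and splicing were described from lists by role. The counts below stand beside 15.5% lower and 13.8% higher over all tested genes, and 11.3% and 10.7% with the offset. No list was tested as a set. Of 21 tested genes of snRNP assembly and import, 14 were lower and 0 higher (median -0.22; with the offset 10 lower). KPNB1, importin beta, which carries assembled particles into the nucleus, went from 828 ± 17.6 to 672 ± 7.06 CPM (SD, n = 3 each), a change of -0.30 (edgeR adjusted p = 5.86e-05). COIL, the marker protein of Cajal bodies where snRNPs mature, fell by 0.33 (edgeR adjusted p = 1.24e-04), and by 0.19 with the offset. Of 16 tested further proteins of the major snRNPs 8 were lower and 0 higher (median -0.16; 5 lower with the offset). SF3B6, a small SF3B subunit listed under the older name SF3B14, fell by 0.39 (edgeR adjusted p = 1.99e-05), and by 0.14 with the offset.

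Of 8 proteins of the minor spliceosome 2 were lower and 0 higher, where 15.5% of all tested genes were lower. Their median was -0.02, and 0.02 with upper-quartile scaling, where that of all tested genes was 0.05. ZCRB1 went from 164 ± 10.2 to 119.7 ± 3.32 CPM (SD, n = 3 each), a change of -0.45 (edgeR adjusted p = 9.92e-07). SNRNP48 fell by 0.21 (edgeR adjusted p = 0.00923), a call lost without DMSO replicate 3 (-0.15, edgeR adjusted p = 0.0696), and SNRNP35 had a change of -0.10 that did not pass (edgeR adjusted p = 0.441). With the offset ZCRB1 was lower at -0.18, SNRNP48 did not pass (-0.06, edgeR adjusted p = 0.409), and RNPC3 was higher at 0.25 (edgeR adjusted p = 0.00130). Of 25 genes of the PRPF19 complex and the catalytic steps 4 were lower with the offset, where 11.3% of all 15036 genes were. Without it 10 were lower and 0 higher, with a median of -0.15. The helicase DHX15 fell by 0.31 and the cyclophilins PPIL1 and CWC27 by 0.30 and 0.34 (edgeR adjusted p = 4.10e-05, 3.46e-04 and 3.56e-04). With the offset PPIL1 was lower at -0.14 (edgeR adjusted p = 0.0441), and DHX15 (-0.11, edgeR adjusted p = 0.0960) and CWC27 (-0.15, edgeR adjusted p = 0.0649) did not pass.

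Of 7 genes of 3′ splice site recognition 4 were lower and 0 higher (median -0.13; 2 lower with the offset), including RBM17 at -0.22, U2SURP at -0.19 and U2AF1 at -0.17 (edgeR adjusted p = 0.00230, 0.00887 and 0.00938). With the offset RBM17 (-0.11, edgeR adjusted p = 0.0635), U2SURP (-0.10, edgeR adjusted p = 0.0762) and U2AF1 (-0.09, edgeR adjusted p = 0.0851) did not pass, and the 2 lower genes were U2AF2 (-0.27) and PUF60 (-0.23). Without DOX replicate 1, U2SURP (-0.14, edgeR adjusted p = 0.0809) and U2AF1 (-0.14, edgeR adjusted p = 0.0601) did not pass, nor did U2AF1 with upper-quartile scaling (-0.12, edgeR adjusted p = 0.0582). Of 9 other proteins with an Sm or LSM fold, 2 were higher and 1 lower (0 in either direction with the offset). ATXN2L and ATXN2 rose by 0.19 and 0.16 (edgeR adjusted p = 0.0109 and 0.0177), both lost without DOX replicate 1 (0.13 and 0.11, edgeR adjusted p = 0.110 and 0.141). LSM11, of the U7 particle, fell by 0.31 at 8.66 ± 0.458 CPM in DMSO (SD, n = 3; edgeR adjusted p = 0.0433). It did not pass without DMSO replicate 1 (-0.27) or 3 (-0.32) or DOX replicate 1 (-0.17) or 3 (-0.33), with edgeR adjusted p of 0.156, 0.0544, 0.280 and 0.0739, nor with upper-quartile scaling (-0.27, edgeR adjusted p = 0.0834). The snRNAs themselves were hardly captured. Of 12 spliceosomal snRNA genes 11 were found, with 14 to 20 counts per library in all, and 0 passed the filter for testing.

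Per kilobase of a reference transcript, levels in DMSO ran from 12.2 CPM per kb for GEMIN2 to 291 CPM per kb for SNRNP70. SNRPC at 278, LSM7 at 233, SF3B4 at 186, SNRPD2 at 182, PRPF8 at 178 and SNRPA at 178 CPM per kb followed SNRNP70. Among Sm genes the order was SNRPD2, SNRPB (142), SNRPG (105), SNRPE (96.0), SNRPD3 (71.9), SNRPF (55.3) and SNRPD1 (13.3), all in CPM per kb. The low value of SNRPD1 rests on a reference transcript of 4909 bases, and that of LSM3, 26.3 CPM per kb, on one of 3815 bases. The order therefore depends on which transcript the cells make, which was not measured here.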

How the data were processed

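RNA was measured in 3 DMSO and 3 DOX samples as strand-specific paired-end libraries, per the labels' protocols. The authors deposited raw read counts per gene. The submitters' processing notes list hg19 as the build, with the tools STAR 2.5.2a, featureCounts and DESeq2 1.12.4 but no roles, and how the counting treated strand was not given in the sources used here. A DESeq2 comparison table that the authors also deposited holds, per gene, the mean normalized signal, the log2 fold change and standard error, the Wald score and the p-value before and after adjustment.

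Genes were filtered with filterByExpr at its defaults (15492 kept, at least 99.88% of counts), scaled with TMM and compared by the quasi-likelihood test of edgeR 4.0.16 (limma 3.58.1, R 4.3.3) on treatment alone, with Benjamini-Hochberg adjustment over all tested genes. The SE was derived from the log2 fold change and the F statistic (change over root F), and 95% intervals are not adjusted for the number of genes. On simulated counts for 15286 genes of this comparison, 50 genes were changed at each fold. The test recovered 36% of 1.15-fold, 80% of 1.25-fold and 100% of 1.5-fold changes. No smaller fold was simulated, so recovery of falls near the smallest reported here was not measured. In the data far more genes were called, 2408 lower and 2137 higher, so the adjustment was less strict than in the simulation. The simulated rates therefore cannot be carried over to the data. The offset used GC content and log2 length of the longest GENCODE 29 transcript, matched by identifier for 97.1% of tested genes. Natural splines with 5 degrees of freedom each were fitted, library by library, to each gene's log2 CPM less its mean over all libraries. The prior count was 2, and the fit used genes whose mean log2 CPM exceeded 2. GENCODE 29 is on GRCh38 and not hg19, so no gene coordinates are given, and overlaps of exons were read within GENCODE 29. Promoters are from RefSeq GRCh38.p14.

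The genes and lists were chosen with earlier results of these data known. Values in every sample are given for the called genes with the smallest adjusted p in each class (the first and the next, or the first alone in a class of 2) and for the largest changes in each direction. SNRPB, PRPF8 and the LSM8 identifier were added after their values were seen. Of each further list the 3 genes with the smallest p and any called gene that moved against the rest are named. RNPC3 was named after its value was seen. Some genes that this rule selects are not reported here. Alternatives were DESeq2 1.42.0 and its size factors, upper-quartile scaling, library size alone, no filter on low counts, each replicate left out, DMSO replicate 2 and DOX replicate 1 both left out, the offset, and a replicate block. Replicate chi-square values per gene were all well above 1, so no pair of libraries agreed within sampling noise.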

Additional observations from a re-analysis of the deposited data

How the results depend on the processing

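Under 15 alternatives the number of the 40 genes called lower ran from 16 (upper-quartile scaling) to 24, with 18 to 24 when 1 replicate was left out, and 0 were higher under any of them. The median log2 fold change ran from -0.11 to -0.20. EFTUD2, GEMIN4, LSM3, LSM7, PRPF4, SNRPB2, SNRPD1, SNRPD3, SNRPE and SNRPG were lower under all 15 (largest edgeR or DESeq2 adjusted p = 0.0316). Of genes whose direction turned, SNRPF alone had been called: with the GC and length offset it was 0.0030, and 0.00040 with the replicate block added. The others had not passed. Given in that order, without and with the block, the offset gave 0.029 and 0.030 for GEMIN2, 0.037 and 0.036 for the LSM8 identifier, -0.024 and -0.022 for PRPF6, -0.0786 and -0.0787 for SF3A2, 0.052 and 0.053 for SF3B2, -0.0859 and -0.0860 for SNRNP200, and 0.10 and 0.10 for SNRNP40. With upper-quartile scaling PRPF8, SNRPA and SF3B2 were at 0.0123, 0.0118 and 0.035, and with library size alone at 0.0075, 0.0076 and 0.031. The median over all tested genes was itself 0.0474 and 0.0430 under these 2 scalings, against -0.0007 with TMM. Over fits that left out 1 replicate, changes ran from -0.029 to 0.047 for PRPF3, -0.0085 to 0.11 for PRPF6, -0.00090 to 0.091 for SF3A1, -0.041 to 0.020 for SF3B2, -0.011 to 0.045 for SNRNP200 and -0.090 to 0.025 for SNRPA. Leaving out DMSO replicate 2 with DOX replicate 1 turned SF3B2 (0.033) and SNRNP200 (-0.0050). The cause was not tested. Correlations of deviations between same-numbered samples were -0.058, -0.227 and 0.086, and between differently numbered ones they ran from -0.285 to 0.323. Deviations from a mean of 3 samples depend on each other, so these values cannot settle whether samples were paired. With the replicate block 21 of 40 were lower, SF3B1 being the call lost (-0.13, edgeR adjusted p = 0.0685). At this depth and with 3 samples a group, small changes could be missed. How often was measured only on the simulated counts described above, and not for these data.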
